A study of Mus musculus with 12 samples.

Results

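The genes described here encode proteins of the primary (azurophil) granules of neutrophils, with the carrier, the activating enzyme and the inhibitor that go with them. The 9 genes, Mpo, Elane, Prtn3, Ctsg, Ctsc, Ms4a3, Cd63, Srgn and Serpinb1a, were taken by symbol from a table of 28987 mouse genes, and all 9 passed the filter on low values (1 TPM or more in 3 or more libraries), as did 13456 genes in all. TPM counts a gene's RNA per transcript length, scaled so that every library has the same total. Neutrophils of wild-type (WT) and of MRP8-Bcl2 mice, both of the fvb strain, were sorted out of the bone marrow (BM) and the peritoneum (PT) after 2 mL of thioglycollate had been given into the peritoneum, and 3 RNA libraries were made per tissue and genotype (WT: BM WT and PT WT, MRP8-Bcl2: BM Bcl2 and PT Bcl2). MRP8-Bcl2 mice carry human Bcl-2 under the control of the MRP8 gene, which is active in myeloid cells, and their neutrophils resist apoptosis. All mice, the WT mice included, had received thioglycollate, so no group is an untreated control. The sample labels give collection at 6 h and name macrophages as the source, whereas the study's methods give other times and its text and design neutrophils, the term used here. The deposited columns number the libraries 1 to 12 without naming the mouse, so p-values measure the spread between these libraries. By the study's methods, BM and PT cells were taken from each mouse, but the columns do not tie a BM library to a PT library, so the tests treat the 4 groups as independent.

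Primary granules are made early in neutrophil development, at the promyelocyte stage, and their proteins are stored through the later stages, when the RNA that encodes them is no longer made. They hold myeloperoxidase, a haem enzyme that makes hypochlorous acid, and a family of serine proteases that are cut into their active form by cathepsin C and packed onto the proteoglycan serglycin. Secondary granules, with lactoferrin and cathelicidin, are made later in the marrow.

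Elane and Prtn3 lie next to each other on chromosome 10, at 79886247 to 79888215 and 79874476 to 79883174 on the plus strand (GRCm38, GENCODE M21), and Ctsg lies at 56099881 to 56102574 on the minus strand of chromosome 14. The RNA of these 3 protease genes, and that of Mpo and Ms4a3, moved together across the libraries described below. For the 3 proteases, the 120 bases before the RefSeq start are shown. Those before the upstream start of Srgn, which moved the opposite way, are also shown. These promoters were thus chosen with the levels in view. Capitals mark matches to the letters GAGGAA (PU.1), TAACNG or CAACNG (MYB), TTNNGNAA (C/EBP) and TGTGGT (RUNX), searched on both strands. The windows are those of RefSeq on GRCm38.p6 and are read on the strand of the gene: chr10:79886192-79886311 plus for Elane, chr10:79879547-79879666 plus for Prtn3, chr14:56102575-56102694 minus for Ctsg and chr10:62527446-62527565 minus for Srgn.
Elane: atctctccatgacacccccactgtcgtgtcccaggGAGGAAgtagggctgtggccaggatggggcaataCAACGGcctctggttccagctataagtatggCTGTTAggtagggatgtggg
Prtn3: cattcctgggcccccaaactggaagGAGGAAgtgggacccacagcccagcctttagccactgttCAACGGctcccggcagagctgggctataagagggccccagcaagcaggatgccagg
Ctsg: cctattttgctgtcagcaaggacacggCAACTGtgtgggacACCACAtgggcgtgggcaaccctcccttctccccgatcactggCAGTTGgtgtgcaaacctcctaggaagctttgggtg
Srgn: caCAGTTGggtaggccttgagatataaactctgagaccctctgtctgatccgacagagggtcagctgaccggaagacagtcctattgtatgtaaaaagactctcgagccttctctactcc
Counted back from the RefSeq start, Elane held a PU.1 match at -85 to -80 and MYB matches at -51 to -46 and -20 to -15. Prtn3 held the same PU.1 letters at -95 to -90 and the same MYB letters, CAACGG, at -56 to -51. Ctsg held MYB matches at -93 to -88 and -36 to -31 and a RUNX match at -79 to -74, and its PU.1 match lay outside the printed bases, at -216 to -211. Within 250 bases, the Srgn start held MYB matches at -155 to -150 and -118 to -113 and none of the other motifs. A further RefSeq start of Srgn, not shown, held 5 C/EBP matches, some of them overlapping, 1 MYB match and 1 RUNX match within its 250 bases. Of 32851 RefSeq promoters of the same length, 23.3% held the PU.1 letters, 43.1% the MYB letters, 36.8% the C/EBP letters and 14% the RUNX letters, so single matches are common. Promoters of 8 of the 9 genes were matched, Serpinb1a being the exception. Among those not shown, Mpo and Ms4a3 had a Pearson's r to Elane of 0.990 and 0.963, against 0.910 for Prtn3. Within 250 bases, Mpo held 2 PU.1 matches, at -247 to -242 and -224 to -219, and 1 MYB match at -166 to -161. All of these lay outside its last 120 bases. Ms4a3 held 1 C/EBP match and no PU.1 or MYB match. The layout of the shown promoters was thus not common to all genes that moved together. Ctsc held 2 PU.1 matches, and Cd63 held 2 PU.1 matches and 1 C/EBP match. Whether any match bears on the RNA levels was not tested. GENCODE begins Elane, Prtn3 and Srgn upstream of these RefSeq starts, so part of the Elane and Srgn windows and the whole Prtn3 window lie inside the GENCODE record of the gene.

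Some libraries stood apart. Mouse Bcl2, the readout of the transgene in a table of mouse genes, was at 0.695 TPM in library 9, labelled PT Bcl2, against 58.6 and 82.8 TPM in the other libraries of that group and 0.219 to 2.37 TPM in the WT libraries. The calls of the 9 genes that involve PT Bcl2 are given with and without library 9. The gene lists, the neighbours of Elane and the ratio of primary to secondary granule RNA are given only with it. Library 3 (BM Bcl2) held 2471 TPM of 4 monocyte markers, against 491 to 1264 TPM in the other marrow libraries, and library 12 (PT WT) held 481 TPM of the mast cell gene Cpa3, against 0.825 to 27.4 TPM elsewhere. Library 1 (BM Bcl2) held 581 TPM of the erythroid marker Hbb-bs, against 0 to 75.1 TPM elsewhere. Of the neutrophil markers, S100a8, S100a9, Csf3r and Cxcr2 were present in all 12 libraries. The sum of 6 such markers was 188174 to 347953 TPM in BM WT and 14264 to 53290 TPM in PT WT. In MRP8-Bcl2 it was 76386 to 217730 TPM in BM and 18613 to 67482 TPM in PT. Ly6g was at 588 to 1266 TPM in BM WT and 0 to 14.9 TPM in PT WT, and Retnlg at 928 to 20198 and 193 to 1074 TPM. Csf3r went the other way, at 183 to 1038 TPM in BM WT and 1839 to 2478 TPM in PT WT, and the Cxcr2 ranges overlapped. In MRP8-Bcl2 the Ly6g ranges overlapped, at 51.5 to 1225 TPM in BM and 58.9 to 126 TPM in PT. Those of Retnlg overlapped there as well, at 343 to 9407 and 316 to 1867 TPM. Csf3r was at 132 to 816 TPM in BM Bcl2 and 1974 to 4569 TPM in PT Bcl2. In the progenitor list, Cd34 and Flt3 did not exceed 1.36 TPM in any library, Sox4 was at 1.31 to 8.20 TPM and Kit at 3.15 to 70.5 TPM, the highest in library 6 (BM WT) and next in library 12. Homopolymer genes, whose transcripts hold 31 or more A or T in a row, took 8.93 to 65.6% of all TPM, which lowers the TPM of the other genes. Genes above 0 numbered 9735, 10854 and 12138 in libraries 7, 8 and 9 (PT Bcl2), against 12907 to 13463 in BM Bcl2. They numbered 11584 to 13793 in BM WT and 13712 to 14305 in PT WT. The effect of this on the lower calls in MRP8-Bcl2 was not tested. In bulk RNA, fewer cells that express a gene and less of its RNA per cell cannot be told apart.

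In both genotypes, PT neutrophils held far less RNA of myeloperoxidase, elastase and cathepsin G than BM neutrophils, and far more serglycin RNA. In WT mice, Mpo, Elane, Ctsg, Ms4a3 and Serpinb1a were called lower and Srgn was called higher, where a call is a Benjamini-Hochberg adjusted p under 0.05 with limma and a change of at least 2-fold on the log2(TPM + 1) scale. Over all tested genes, 1.22% were called lower and 1.59% higher in that comparison. In MRP8-Bcl2 mice the same 5 genes and Prtn3 were called lower and Srgn was called higher, beside 19.1% of all tested genes lower and 2.31% higher. The median log2 difference of the 9 genes was -4.25 in WT, against 0.22 over all tested genes, and -5.89 in MRP8-Bcl2, against -1.02. Prtn3 was not called in WT, and Ctsc and Cd63 were not called in either genotype. The lowest library of BM lay above the highest library of PT for 6 genes in each genotype, as for 7.97% of tested genes in WT and 32.6% in MRP8-Bcl2, and for Srgn the order was the opposite, as for 14.9% and 5.18%.

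**Figure D1:**
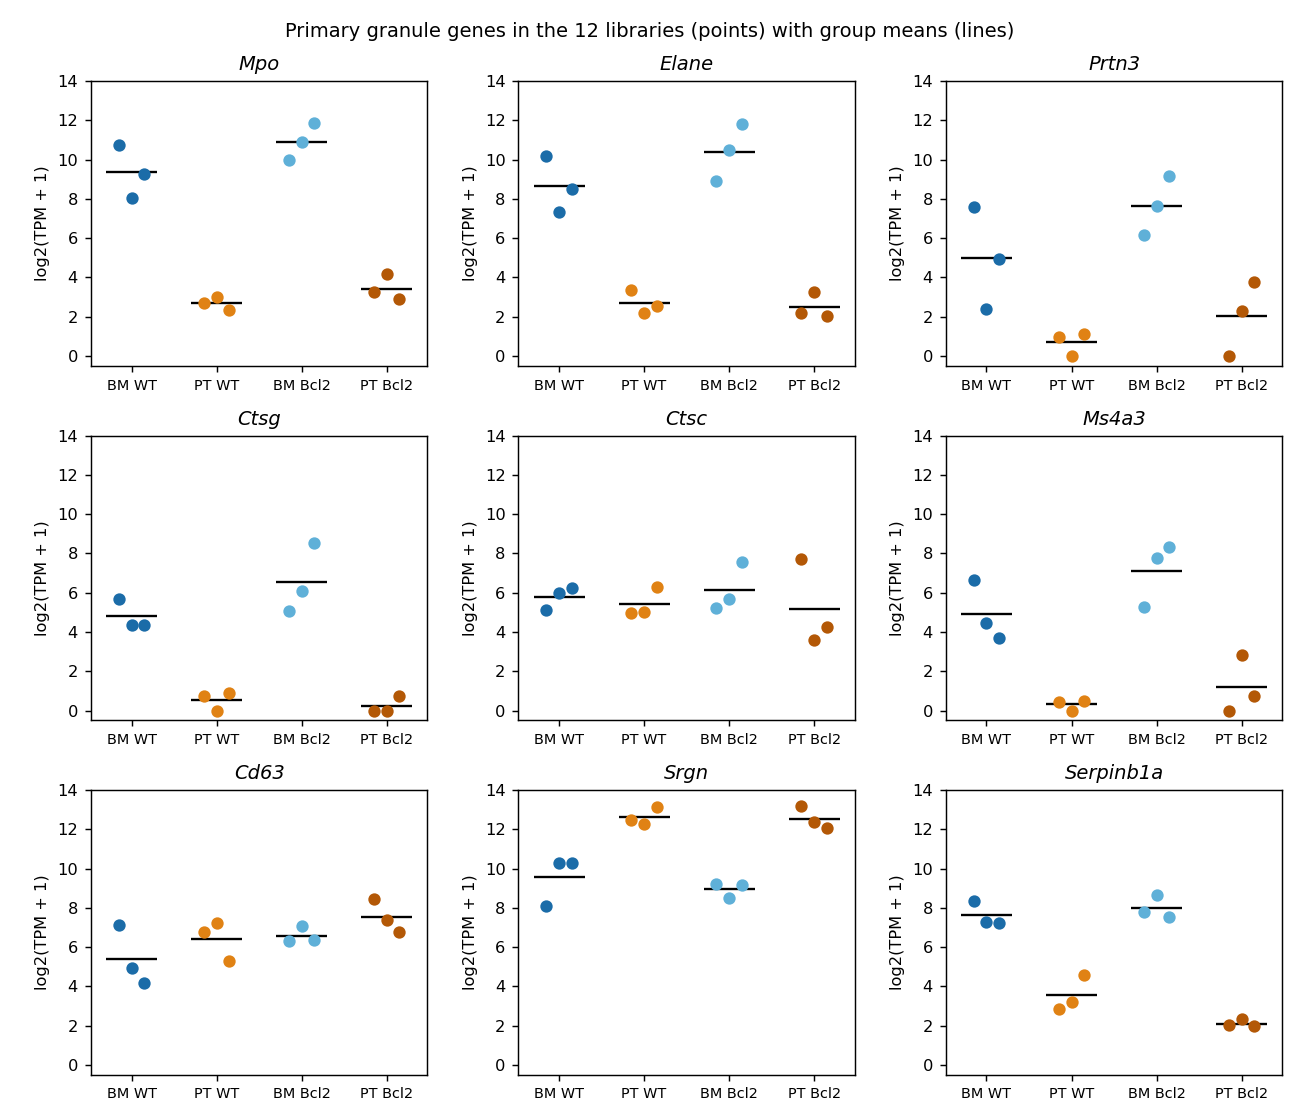
Level of each of the 9 genes as log2(TPM + 1) in the 12 libraries (points), by tissue and genotype, with the mean of the 3 libraries as a line. Mpo, Elane, Prtn3, Ctsg, Ms4a3 and Serpinb1a sit higher in all BM than in all PT libraries of the same genotype, Srgn sits lower, and Ctsc and Cd63 overlap.

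Mpo (chromosome 11, 87793581 to 87804413, plus strand) encodes myeloperoxidase, the most abundant primary granule protein. In WT its level was 1743 TPM in library 4, 263 in library 5 and 622 in library 6, all BM, and 5.42 in library 10, 7.10 in library 11 and 4.06 in library 12, all PT. In MRP8-Bcl2 its level was 1003 TPM in library 1, 1874 in library 2 and 3698 in library 3, all BM, and 8.43 in library 7, 17.2 in library 8 and 6.43 in library 9, all PT. The other genes are given in the same order of libraries. Every BM library was thus above every PT library, and library 3 was the highest of all. The mean fell from 876 ± 772 TPM to 5.53 ± 1.52 TPM in WT (SD, n = 3), a log2 difference of -6.69 (SE 0.69, limma adjusted p 0.000333). In MRP8-Bcl2 the mean fell from 2192 ± 1375 TPM to 10.7 ± 5.72 TPM (log2 difference -7.46, SE 0.69, limma adjusted p 5.84e-05). By p, Mpo ranked 3 of 13456 genes in WT and 4 in MRP8-Bcl2. Ranked by level, it stood at 11 among all genes in library 3 and at 236 in library 5, and no higher than 2605 in any PT library.

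Elane encodes neutrophil elastase, a serine protease that cuts elastin and bacterial proteins. Its levels were 1171, 159 and 363 TPM in BM WT and 9.21, 3.55 and 4.82 TPM in PT WT. They were 484, 1430 and 3557 TPM in BM Bcl2 and 3.62, 8.51 and 3.04 TPM in PT Bcl2. The tissues did not overlap, and the marrow libraries that were high in Mpo were high in Elane. The log2 difference was -5.98 in WT (SE 0.80, limma adjusted p 0.00144) and -7.91 in MRP8-Bcl2 (SE 0.80, limma adjusted p 0.000106). The gene has a single annotated transcript, and from the spacing of low TPM values its levels came to about 104 to 2170 reads per BM library and 3.31 to 26.5 reads per PT library, so that the PT levels rest on few reads.

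Prtn3 encodes proteinase 3, an elastase-like protease and the closest of these genes to Elane in position. Its levels were 194, 4.28 and 29.7 TPM in BM WT, 0.964, 0 and 1.21 TPM in PT WT, 70.1, 197 and 573 TPM in BM Bcl2, and 0, 3.89 and 12.5 TPM in PT Bcl2. Library 5 (BM WT) lay below library 9 (PT Bcl2), but within each genotype the tissues did not overlap. The log2 difference was -5.63 in MRP8-Bcl2 (SE 1.21, limma adjusted p 0.00662). In WT it was -4.28 (SE 1.21, limma adjusted p 0.0746) and was not called. Without library 5, the lowest BM library, it was -5.57 in WT (limma adjusted p 0.0257), and without library 4, the highest, it was -2.96 (limma adjusted p 0.261). Of 12 fits that each left out 1 library, 2 called it in WT, and median centring of the libraries gave -4.49 (limma adjusted p 0.0484).

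Ctsg encodes cathepsin G, a protease with chymotrypsin-like activity. Its levels were 50.6, 19.5 and 19.2 TPM in BM WT and 0.683, 0 and 0.858 TPM in PT WT. In BM Bcl2 they were 32.1, 66.5 and 368 TPM, and the gene was listed at 0 in libraries 7 and 8 and at 0.674 TPM in library 9 (PT Bcl2). The lowest BM library was above all PT libraries, in which the level was close to that of single reads. The log2 differences were -4.25 in WT (SE 0.85, limma adjusted p 0.0161) and -6.30 in MRP8-Bcl2 (SE 0.85, limma adjusted p 0.000722). The WT call was lost without library 4, 10 or 11, with limma adjusted p of 0.0757, 0.0597 and 0.0635.

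Ms4a3 (chromosome 19, 11629496 to 11640851, minus strand) encodes a membrane protein of granulocyte-monocyte progenitors and their early progeny. Levels of 99.8, 20.7 and 11.8 TPM were found in BM WT, 0.337, 0 and 0.424 TPM in PT WT, 36.9, 213 and 321 TPM in BM Bcl2, and 0, 6.11 and 0.664 TPM in PT Bcl2. The tissues did not overlap, although library 8 (PT Bcl2) stood above the other PT libraries. The log2 differences were -4.62 in WT (SE 0.99, limma adjusted p 0.0235) and -5.92 in MRP8-Bcl2 (SE 0.99, limma adjusted p 0.00206). The WT call was lost without library 4, 10, 11 or 12 (limma adjusted p 0.0981, 0.0764, 0.0725 and 0.0528), and when all genes above 0 in any library were tested (0.0545).

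Serpinb1a (chromosome 13, 32842092 to 32851185, minus strand) encodes a cytosolic inhibitor of elastase, proteinase 3 and cathepsin G. WT neutrophils held 328, 153 and 151 TPM in BM and 6.26, 8.10 and 23.0 TPM in PT. Those of MRP8-Bcl2 held 219, 403 and 185 TPM in BM and 3.04, 3.99 and 2.95 TPM in PT. No PT library reached the lowest BM library, and in the peritoneum the WT libraries were all above the MRP8-Bcl2 libraries. The log2 differences between tissues were -4.08 in WT (SE 0.60, limma adjusted p 0.00311) and -5.89 in MRP8-Bcl2 (SE 0.60, limma adjusted p 0.000118). The inhibitor and the elastase gene thus fell in the same direction. Serpinb1a came to 0.280 to 0.960 TPM per TPM of Elane in BM WT and to 0.679 to 4.77 in PT WT, ranges that overlap. In MRP8-Bcl2 the ratio was 0.0519 to 0.453 in BM and 0.469 to 0.967 in PT. These ranges were apart only narrowly, with 0.453 in library 1 (BM) and 0.469 in library 8 (PT). The PT ratios of MRP8-Bcl2 rest on about 3.31 to 12.1 Elane reads per library, too few to tell a shift of the ratio. Serpinb1a shares 10.1% of its 31-base sequences with other genes, among them its copies Serpinb1b and Serpinb1c. In no library did Serpinb1b exceed 0.708 TPM or Serpinb1c 2.08 TPM. The effect of the shared sequences on the Serpinb1a level was not tested.

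Ctsc (chromosome 7, 88278085 to 88310888, plus strand) encodes cathepsin C, which removes the dipeptide that keeps the granule proteases inactive. Its BM levels were 34.1, 62.8 and 75.1 TPM in WT and 36.8, 50.8 and 185 TPM in MRP8-Bcl2. Its PT levels were 30.3, 31.4 and 78.3 TPM in WT and 205, 10.9 and 18.0 TPM in MRP8-Bcl2. The tissues overlapped in both genotypes, and the highest value of all was in library 7 (PT Bcl2). The log2 difference was -0.36 in WT (SE 0.92, 95% confidence interval -2.33 to 1.61, limma adjusted p 0.886) and -0.99 in MRP8-Bcl2 (SE 0.92, interval -2.96 to 0.98, adjusted p 0.46). Without library 7 the difference in MRP8-Bcl2 was -2.25 and was called (limma adjusted p 0.0497), whereas median centring of the libraries gave 0.60.

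Cd63 (chromosome 10, 128900989 to 128912822, plus strand) encodes a tetraspanin of the primary granule membrane that is also found in lysosomes of many cell types. Its levels were 138, 29.8 and 16.8 TPM in BM WT, 109, 147 and 37.9 TPM in PT WT, 79.8, 133 and 80.6 TPM in BM Bcl2, and 347, 164 and 109 TPM in PT Bcl2. The groups overlapped, with libraries 5 and 6 (BM WT) the lowest. The log2 difference was 1.02 in WT (interval -0.58 to 2.61, limma adjusted p 0.539) and 0.94 in MRP8-Bcl2 (interval -0.66 to 2.54, limma adjusted p 0.379). Median centring of the libraries gave 2.53 in MRP8-Bcl2, which was called (limma adjusted p 0.039). Cd63 shares 15.9% of its 31-base sequences with other genes, including a pseudogene.

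Srgn (chromosome 10, 62493833 to 62527451, minus strand) encodes the core protein of serglycin, the proteoglycan that holds basic proteins in the granules of several blood cell types. In WT its levels were 275, 1225 and 1244 TPM in BM and 5697, 4995 and 8986 TPM in PT. In MRP8-Bcl2 they were 595, 367 and 564 TPM in BM and 9282, 5276 and 4223 TPM in PT. All PT libraries were above all BM libraries, and in the marrow libraries 5 and 6, where Mpo and Elane were lowest, Srgn was highest. The mean rose from 914 ± 554 TPM to 6560 ± 2131 TPM in WT (SD, n = 3), a log2 difference of 3.08 (SE 0.57, limma adjusted p 0.0107). In MRP8-Bcl2 it rose from 509 ± 123 TPM to 6260 ± 2669 TPM (log2 difference 3.57, SE 0.57, limma adjusted p 0.00157). Ranked by level, Srgn stood between 8 and 11 among all genes in the PT libraries and between 41 and 206 in the BM libraries. The WT call was lost after median centring of the libraries (2.87, limma adjusted p 0.0562) and when only BM WT and PT WT entered the fit (0.0558).

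Cells other than neutrophils can also hold Srgn RNA, although the cells were sorted, and the study identified neutrophils as CD11b+, F4/80- and GR1++, a gate that B cells and mast cells should not pass. The summed level of 7 mast cell and basophil markers was 25.8 to 636 TPM in PT WT against 10.8 to 47.8 TPM in BM WT, and that of 5 B cell markers was 632 to 1410 TPM against 71.0 to 262 TPM. In MRP8-Bcl2 the mast cell and basophil sum was 1.43 to 39.6 TPM in PT and 4.03 to 27.9 TPM in BM, and the B cell sum was 239 to 842 TPM and 27.7 to 226 TPM. The sum of 8 macrophage markers was 71.9 to 79.0 TPM in PT WT and 14.7 to 107 TPM in BM WT. In MRP8-Bcl2 it was 17.9 to 141 TPM in PT and 17.9 to 116 TPM in BM. The sum of 5 eosinophil markers was 22.3 to 34.9 TPM in PT WT and 2.06 to 7.87 TPM in BM WT. In MRP8-Bcl2 it was 5.84 to 24.7 TPM in PT and 1.63 to 9.63 TPM in BM. Of these lists only the B cell sum was apart between the tissues in both genotypes, and the eosinophil sum was apart in WT. The part of these cells in the result was not tested. Without library 12, in which the mast cell sum was highest, the Srgn difference in WT was 2.83 (limma adjusted p 0.0411).

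**Figure D2:**
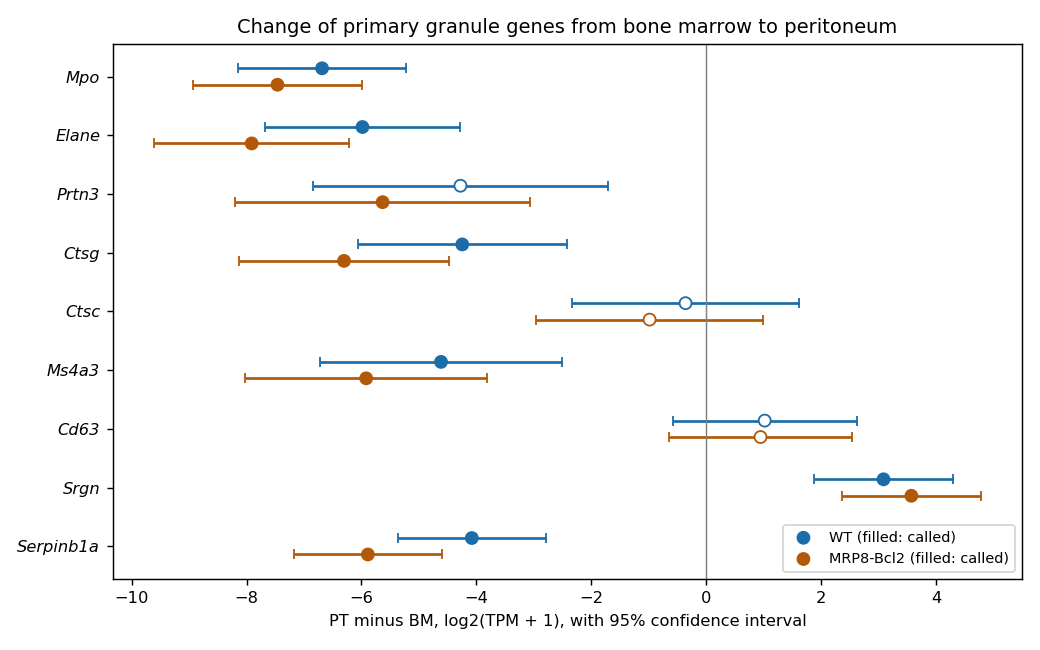
Difference PT minus BM in log2(TPM + 1) for each of the 9 genes in WT and in MRP8-Bcl2, with the 95% confidence interval of the limma fit as a bar and filled points where the gene was called. Mpo lies at -6.69 and -7.46, Srgn at 3.08 and 3.57, and the intervals of Ctsc and Cd63 include 0.

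With library 9 left out, the same 7 genes were called in MRP8-Bcl2, with log2 differences of -7.19 for Mpo, -7.67 for Elane, -6.50 for Prtn3, -6.55 for Ctsg, -5.69 for Ms4a3, -5.83 for Serpinb1a and 3.81 for Srgn, and Ctsc and Cd63 had differences of -0.53 and 1.32. With library 3 left out, the same 7 were called, with -6.98 for Mpo, -7.21 for Elane, -4.87 for Prtn3 and 3.66 for Srgn. In PT Bcl2, library 9 itself held the highest Prtn3 level and the lowest levels of Mpo, Elane, Srgn and Serpinb1a in its group.

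For none of the 9 genes was the difference in tissue change between the genotypes called (limma interaction, adjusted p 0.298 to 0.976), where 0.0149% of all tested genes were called. None of the 9 had an unadjusted p under 0.05 in this comparison, against 0.364% of tested genes higher and 16.6% lower. The median log2 difference between the changes was -1.30 over the 9 genes and -1.18 over all tested genes. As a set, the 9 genes thus lay near the shift of all genes. The smallest p was that of Serpinb1a, with a log2 difference between the changes of -1.81 (95% confidence interval -3.63 to 0.01, limma unadjusted p 0.0513). The interval was -4.33 to 0.47 for Elane and -4.63 to 0.52 for Ctsg, which is wide with 3 libraries a group. Without library 9, none of the 9 was called either, and the difference was -1.75 for Serpinb1a, -1.69 for Elane and -2.30 for Ctsg. The comparisons of tissues and of genotypes share libraries and are not independent.

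Within the bone marrow, none of the 9 genes was called between genotypes (limma), beside 0.0149% of tested genes called higher and 0.00743% lower. Mpo averaged 2192 ± 1375 TPM in BM Bcl2 and 876 ± 772 TPM in BM WT (log2 difference 1.53, 95% confidence interval 0.07 to 3.00). At an unadjusted p under 0.05, Mpo, Elane, Prtn3 and Ms4a3 were higher, as were 6.61% of all tested genes (0.751% were lower, none of the 9 among them), and their limma adjusted p was 0.673. For each of the 9 genes the ranges of the genotypes overlapped. The median log2 difference was 1.53 over the 9 genes and 0.49 over all tested genes. Without library 3 the difference was 1.06 for Mpo, 1.03 for Elane and 0.77 for Ctsg, against 1.53, 1.73 and 1.76 with it.

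Within the peritoneum none of the 9 genes was called between genotypes (limma), beside 0% of tested genes higher and 0.0297% lower. Serpinb1a was at 3.32 ± 0.576 TPM in PT Bcl2 and 12.5 ± 9.18 TPM in PT WT (log2 difference -1.44, limma unadjusted p 0.0309, adjusted p 0.348), and its ranges did not overlap, as for 18.8% of tested genes. At an unadjusted p under 0.05, it was the only one of the 9, while 12.3% of tested genes were lower and 0.446% higher. Without library 12, the highest for Serpinb1a in PT WT, the difference was -0.92. Over the 9 genes the median log2 difference was -0.10, against -0.67 over all tested genes. For Srgn the difference was -0.10 (95% confidence interval -1.32 to 1.11), an interval that includes 0. Without library 9 none of the 9 was called, the Serpinb1a difference was -1.38, and those of Elane, Ctsc and Srgn turned positive, at 0.036, 0.20 and 0.14.

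The marrow libraries spanned a wide range of levels. Mpo, Elane and Prtn3 ranked the 6 marrow libraries in the same order, from library 3, the highest, through 2, 4, 1 and 6 to 5, the lowest, which mixes the genotypes. Ctsg and Ms4a3 had the same order but for libraries 5 and 6. From the highest to the lowest library, Ctsg spanned 19.2-fold, Elane 22.4-fold, Ms4a3 27.3-fold and Prtn3 134-fold, whereas Serpinb1a spanned 2.67-fold. The lowest Prtn3 level rests on about 2.96 reads.

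Markers of dividing cells followed the same order. Mki67, a marker of cells in cycle, was at 466 TPM in library 3, 371 in library 2, 295 in library 4, 159 in library 1, 98.1 in library 6 and 62.7 in library 5, the order of Mpo, and Top2a had the order of Ctsg. The summed level of 5 cycling markers was 150 to 748 TPM in BM WT and 376 to 1396 TPM in BM Bcl2, and 44.7 to 73.0 TPM in PT WT and at most 52.9 TPM in PT Bcl2. The monocyte sum, highest in library 3, was 491 to 1264 TPM in BM WT and 134 to 159 TPM in PT WT. The share of cells at each stage of maturation was not measured, and the part of these cells in the tissue difference was not tested. The secondary granule genes Camp, Ltf, Ngp and Lcn2 had other orders, and all 4 were lowest in library 3, at 376 to 2844 TPM.

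**Figure D3:**
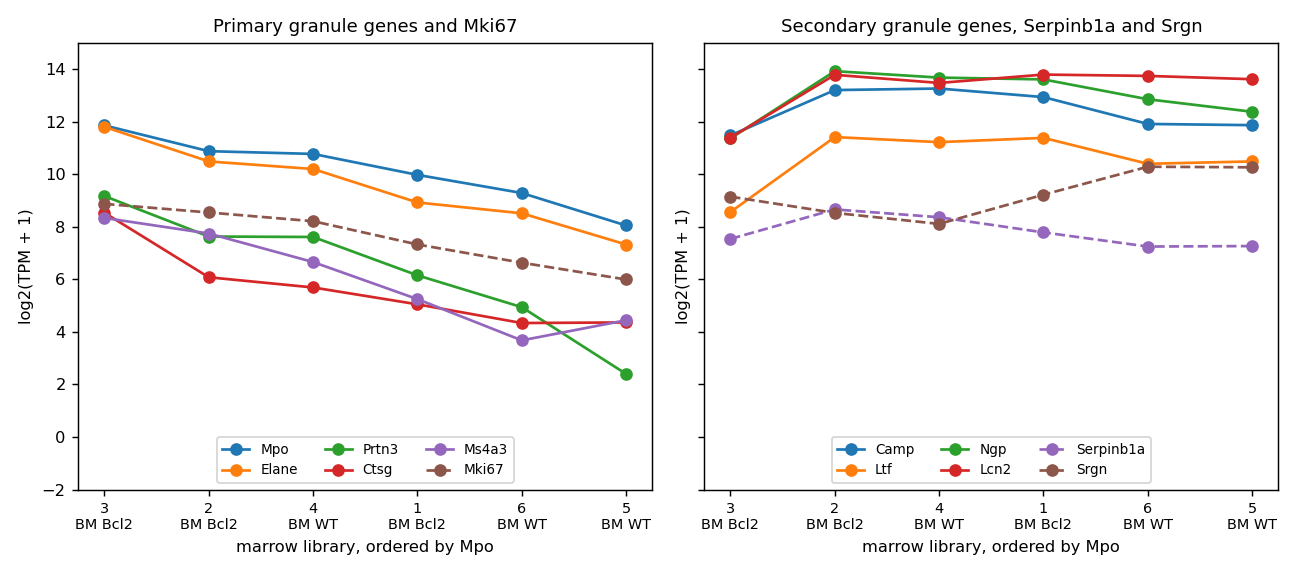
Levels in the 6 marrow libraries as log2(TPM + 1), ordered by Mpo from left to right. On the left, Mpo, Elane, Prtn3, Ctsg, Ms4a3 and Mki67 fall from library 3 towards libraries 6 and 5. On the right, Camp, Ltf, Ngp and Lcn2 are lowest in library 3, and Srgn is highest in libraries 6 and 5.

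The mean log2(TPM + 1) of Mpo, Elane, Prtn3 and Ctsg was taken as a profile, and the 10 other genes closest to it by Pearson's r were Iqgap3 (0.994), Knstrn, Incenp, E2f8, Mad2l1, Stmn1, Anln, Mcm5, Plk1 and Gmnn (0.978). Many of these are known for mitosis or DNA replication: Incenp and Plk1 act at chromosomes and the spindle, Mad2l1 in the spindle checkpoint, and Mcm5 and Gmnn in the licensing of replication. Their levels were low beside those of the granule genes, with Incenp at a mean of 25.0 TPM in BM WT and 0.427 TPM in PT WT. Against the same profile, r was 0.970 for Ms4a3 and 0.915 for Serpinb1a, 0.277 for Ctsc, -0.259 for Cd63 and -0.957 for Srgn. These values over 12 libraries are descriptions, since the tissues form separate clusters that all such genes share.

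The makeup of the primary granule RNA also varied. The summed level of Mpo, Elane, Prtn3 and Ctsg was 446 to 3160 TPM in BM WT and 1590 to 8196 TPM in BM Bcl2, or at most 0.904% of all TPM, and 10.7 to 16.3 TPM in PT WT and at most 29.6 TPM in PT Bcl2. Mpo made up 45.1% of this sum in library 3 and 52.5 to 63.1% in the other marrow libraries. Prtn3 and Ctsg made up 11.5% in library 3 and 4.73 to 7.75% in the others, so that library 3 differed in composition as well as in level. Elane per Mpo was 0.962 in library 3 and 0.483 in library 1, both BM Bcl2, and 0.585 to 0.672 in BM WT. In PT, where Mpo came to about 26.4 to 83.9 reads and Elane to fewer in each library, these shares were not compared.

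Most genes of the secondary granules were lower in PT as well. Of 10 secondary and tertiary granule genes, 7 were called lower in WT and 6 in MRP8-Bcl2, and their median log2 difference was -4.56 in WT and -3.95 in MRP8-Bcl2. By p in WT, Camp, which encodes cathelicidin, led the list (log2 difference -7.46), ahead of Ngp (-7.13), Chil3 (-5.47) and Ltf (-6.45). Per 100 TPM of Ltf, Camp, Ngp and Lcn2 together, the 4 primary granule genes amounted to 1.94, 3.95 and 8.64 TPM in BM WT and 1.79 to 3.27 TPM in PT WT. The ratio was 4.29, 8.57 and 96.1 TPM in BM Bcl2 and 1.06 to 4.06 TPM in PT Bcl2. The ranges of the tissues overlapped in WT. In MRP8-Bcl2 BM was higher, but the ranges were apart only narrowly, with 4.29 in library 1 (BM) and 4.06 in library 9 (PT). In library 9, Prtn3 and Ctsg made up 58.2% of the sum of the 4 primary granule genes. The PT ratios rest on few reads, too few to tell a shift of the ratio. Library 3 was far above all others.

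**Figure D4:**
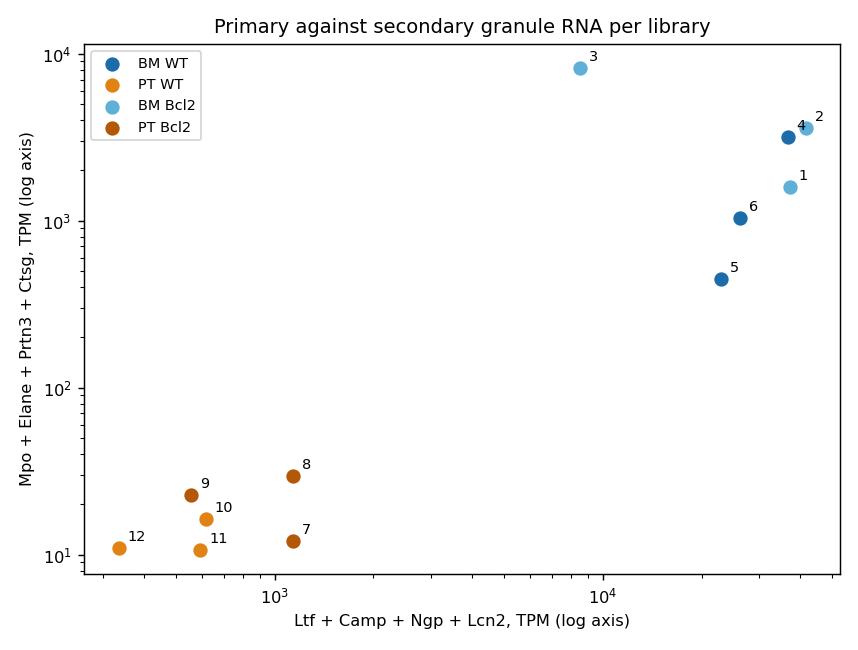
Summed TPM of Mpo, Elane, Prtn3 and Ctsg against summed TPM of Ltf, Camp, Ngp and Lcn2, both on log axes, with 1 point per library, numbered and coloured by group. The PT libraries lie at 10.7 to 29.6 TPM on the vertical axis, and library 3 combines the highest primary granule sum, 8196 TPM, with the lowest secondary granule sum of the marrow libraries, 8525 TPM.

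Around Elane and Prtn3, within 100 kb of Elane, lay 15 other genes, of which 10 were tested. In WT 1 of them was called lower and in MRP8-Bcl2 6, beside 1.22% and 19.1% of all tested genes, and none was called higher. Prss57, a further serine protease of these granules, averaged 16.7 ± 21.2 TPM in BM WT and 0.191 ± 0.331 TPM in PT WT (log2 difference -3.20, limma adjusted p 0.0664), and it was called in MRP8-Bcl2 (-4.42, limma adjusted p 0.00464). Cfd, the complement factor D gene that borders Elane, was listed at 0 in all libraries.

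Other genes of the pathway were counted in lists, to be read beside the 1.22% (WT) and 19.1% (MRP8-Bcl2) of all tested genes called lower and the 1.59% and 2.31% called higher. Of 13 tested genes for other azurophil granule proteins, 1 was called higher and 2 lower in WT, and 1 higher and 5 lower in MRP8-Bcl2. The list median was -0.20 in WT and -0.96 in MRP8-Bcl2, close to the medians of all genes, 0.22 and -1.02. Lyz2, which encodes lysozyme, fell from 10259 ± 2008 TPM to 1415 ± 871 TPM in WT (SD, n = 3, log2 difference -3.02, limma adjusted p 0.0119), with a log2 difference of -3.77 in MRP8-Bcl2. The lysosomal sulfatase gene Galns fell, with log2 differences of -3.16 in WT (limma adjusted p 0.0248) and -3.67 in MRP8-Bcl2. Bpi was listed at 0 in all 12 libraries.

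Inhibitors of granule proteases other than Serpinb1a mostly did not pass the test. Of 7 tested, Cstb, which encodes the cathepsin inhibitor stefin B, was called higher in WT (2.76, limma adjusted p 0.0474) and in MRP8-Bcl2 (3.76, limma adjusted p 0.00344), and none was called lower. The elastase inhibitor gene Slpi stood at 262 ± 76.3 TPM in BM WT and 112 ± 27.2 TPM in PT WT (log2 difference -1.21, limma adjusted p 0.3). The median of the list was 0.91 in WT and -0.94 in MRP8-Bcl2.

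Of 10 other cathepsins tested, none was called in WT, and 1 was called higher and 1 lower in MRP8-Bcl2. Ctsd, an aspartic protease of lysosomes, averaged 272 ± 105 TPM in BM WT and 931 ± 633 TPM in PT WT (log2 difference 1.51, limma adjusted p 0.256), and its difference of 2.71 was called in MRP8-Bcl2 (limma adjusted p 0.011). Ctse averaged 381 ± 239 TPM in BM WT and 91.4 ± 33.5 TPM in PT WT (limma adjusted p 0.106). The list median was 1.26 in WT and -0.51 in MRP8-Bcl2.

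Myeloperoxidase needs haem and the folding proteins of the endoplasmic reticulum. Of 11 genes for haem synthesis and folding, none was called in WT and 5 were called lower in MRP8-Bcl2 (among them Alas1, Uros, Cpox and Calr, named after their values were seen), beside 19.1% of all tested genes, with list medians of -0.50 and -2.24 against 0.22 and -1.02 over all genes. Calr, which encodes calreticulin, a chaperone of myeloperoxidase, had a log2 difference of 0.38 in WT (limma adjusted p 0.793) and of -2.18 in MRP8-Bcl2 (limma adjusted p 0.0179). Pdia3 and Canx, the most abundant of the list, were not called, with differences of 0.37 and 0.61 in WT, and in MRP8-Bcl2 of -1.43 and -0.39. The difference between genotypes was not called for any gene of the list. The sum of 5 erythroid markers was 70.2 to 1067 TPM in BM Bcl2 and 0.549 to 5.49 TPM in PT Bcl2. In WT it was 25.4 to 134 TPM in BM and 1.96 to 9.26 TPM in PT. The part of erythroid cells in the levels of the haem genes was not tested.

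Serglycin carries chains of chondroitin sulfate, and of 10 tested genes for their synthesis 1 was called higher in WT and 1 higher and 2 lower in MRP8-Bcl2. Xylt1, the enzyme that starts the chain, rose from 13.3, 26.7 and 2.88 TPM in BM WT to 60.1, 91.9 and 143 TPM in PT WT (log2 difference 3.02, limma adjusted p 0.0381), and its difference in MRP8-Bcl2 was 1.46 (limma adjusted p 0.158). Chst11, a sulfotransferase, had a difference of 1.54 in WT (limma adjusted p 0.196) and rose by 1.96 in MRP8-Bcl2 (limma adjusted p 0.031). The medians were 0.41 and -0.19, beside differences of 3.08 and 3.57 for Srgn itself.

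Of 13 tetraspanins other than Cd63, 1 was called higher in WT, and 2 were called higher and 3 lower in MRP8-Bcl2. Cd53, a tetraspanin of leukocytes, rose from 254 ± 77.7 TPM to 892 ± 191 TPM in WT (log2 difference 1.83, limma adjusted p 0.0423) and by 1.80 in MRP8-Bcl2 (limma adjusted p 0.0135). Cd9 had a difference of 1.21 in WT (limma adjusted p 0.274) and rose by 1.64 in MRP8-Bcl2 (limma adjusted p 0.0412). The medians were 0.39 and -1.20.

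Of 13 genes for granule traffic and release, 1 was called higher in WT, and 1 higher and 2 lower in MRP8-Bcl2. Snap23, a SNARE of the plasma membrane, stood at 119, 226 and 128 TPM in BM WT and at 922, 781 and 1622 TPM in PT WT, a rise of 2.79 on the log2 scale (SE 0.52, limma adjusted p 0.0113), and it rose by 2.58 in MRP8-Bcl2. Rab27a, a GTPase that docks granules, averaged 49.6 ± 6.01 TPM in BM WT and 18.7 ± 4.41 TPM in PT WT, and the log2 difference of -1.38 was not called (limma adjusted p 0.179). Rac2 had a difference of -1.24 in WT (limma adjusted p 0.18). The medians were -0.24 and -0.78.

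Of 7 transcription factors of the primary granule programme, none was called in WT and 4 were called lower in MRP8-Bcl2, beside 19.1% of all tested genes, with list medians of -0.25 and -2.60. Spi1, which encodes PU.1 and was the most abundant, stood at 418 ± 117 TPM in BM WT and 378 ± 56.7 TPM in PT WT (log2 difference -0.12, limma adjusted p 0.925). The 4 called genes were Myb (-4.50), Cebpe (-4.81), Cbfb (-3.24) and Cebpa (-2.31), of which Cbfb is the only one named by the rule for this list (the others below were named after their values were seen). Myb, a factor of proliferating progenitors, stood at 31.6, 8.32 and 5.14 TPM in BM WT and 0.0800, 0.633 and 4.98 TPM in PT WT, ranges that did not overlap, with a log2 difference of -2.49 (limma adjusted p 0.153). Cebpa stood at 1.23 to 2.65 TPM in BM WT and 6.39 to 14.2 TPM in PT WT (log2 difference 1.89, limma adjusted p 0.195). Its difference between genotypes was -4.20 and was not called (limma interaction, adjusted p 0.192).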

How the data were processed

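RNA of sorted neutrophils was sequenced in 12 libraries, 3 per tissue (BM, PT) and genotype (WT, MRP8-Bcl2). The authors analysed the reads with AltAnalyze and deposited log2(TPM + 1) per gene and library, where TPM scales each gene by its length and each library to the same total. The genome build and the version of that tool were not given in the sources used here. The authors' averages, folds, p-values, correlation scores and lineage z-scores were not used, nor were 2 columns of per-sample values from an unnamed library. Groups were taken from the column names and the header of the deposited marker table.

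The 13456 genes that reached 1 TPM in 3 or more libraries were tested in R 4.3.3 with a single limma fit (version 3.58.1) of the 4 groups, moderated with a trend on the mean, with a pseudocount of 1, which understates the change of low genes. P-values were adjusted by the Benjamini-Hochberg method over all tested genes. On simulated data for PT against BM in WT, over 13456 genes, 6 of 68 genes changed by 2 on the log2 scale, 35 of 67 changed by 4 and 61 of 65 changed by 6 were called, with 3 false calls. Symbols and coordinates are those of GENCODE M21, matched by Ensembl ID for 27458 of 28987 genes. TPM keeps no read totals, and depth was therefore inferred from how low values are spaced: 1 read on a transcript of 1000 nt was worth 0.341 to 1.60 TPM.

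The members and gene lists were chosen with earlier results of these data known. By rule, at most 4 genes are named from each list, those with the smallest p in WT, or, where none was called in WT, the 2 with the highest mean. Further genes of the haem and transcription factor lists, and Bpi, Serpinb1b and Serpinb1c, are named outside this rule. Genes named with their values in view are stated as such, and neighbours of Elane are of that kind. The alternatives were another pseudocount, filters, scalings, thresholds, variance models and subsets of libraries. Some genes of the lists are counted but not reported here by name.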

Additional observations from a re-analysis of the deposited data

How the results depend on the processing

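Over 22 alternatives, 376 of the 396 tissue differences of the 9 genes kept their direction and their side of the threshold, 13 lost and 5 gained the call, and 2 reversed. Mpo, Elane and Serpinb1a were called lower in both genotypes under all 22. At an adjusted p under 0.01, 3 members were called in WT in place of 6. With each library left out in turn, 4 to 7 members were called in WT and 7 to 8 in MRP8-Bcl2. The median of all genes moved from -1.02 in MRP8-Bcl2 to 0.57 with libraries centred on their median, and from 0.22 to 0.62 in WT without the homopolymer genes, an alternative chosen after seeing the data, so small differences depend on the scaling. Of 576 interaction and genotype values, 34 reversed and 0 were called.

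With centring, reversed values were 0.60 for Ctsc between tissues in MRP8-Bcl2, 1.03 for Mpo, 0.45 for Prtn3, 1.18 for Ctsc, 0.50 for Ms4a3 and 1.73 for Cd63 in the interaction, -0.37 for Ctsc and -0.37 for Serpinb1a between genotypes in BM, and 0.87 for Elane, 0.77 for Ctsg, 0.81 for Ctsc and 0.97 for Srgn in PT. Quantile normalization gave 0.44 for Cd63 in the interaction and 0.76 for Elane, 0.28 for Ctsg and 0.049 for Ctsc in PT. Without homopolymer genes the values were 0.15 for Ctsc between tissues in WT, 0.18 for Cd63 in the interaction and 0.11 for Srgn in PT. Leaving out single libraries gave -0.93 to 0.55 for Cd63 and -1.89 to 0.17 for Ctsc in the interaction, -0.33 to 0.82 for Ctsc in BM, and -1.52 to 0.54 for Ctsc, -0.58 to 0.13 for Elane and -0.43 to 0.15 for Srgn in PT. The cause of these changes was not tested. No paired analysis was possible because the columns carry no replicate number and do not say which BM and PT libraries came from one mouse.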
